A study of Mus musculus with 16 samples.

Results

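The 10 genes described here are macrophage genes of the mouse lung: the 3 chains of complement C1q (C1qa, C1qb and C1qc), Csf1r, Mrc1, Chil3, Marco, Lyz2, Cd68 and Adgre1. They are 10 of the 49452 genes in the deposited tables, each was found by its gene symbol, and each had 1 entry with a valid Cufflinks status in all 16 mice. The 10 genes were chosen by their measured FPKM (mapped fragments, normalized to transcript length and library size) in earlier results of these same mice, so their levels and differences are given as a description, with no test. Tests were kept for other genes of the same cells and pathways, and these lists too were drawn up with earlier results known.

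RNA was sequenced from cells that carried the red reporter tdTomato in lungs of mice given saline or bleomycin, a drug that injures the lung and leads to fibrosis. All mice carried a tdTomatoflox reporter and a tamoxifen-dependent Cre, which was driven by the Acta2 promoter (Acta2-CreERT2, active in smooth muscle cells and myofibroblasts) or by the Pdgfra promoter (Pdgfra-CreERT2, active in fibroblasts). Each line, called Acta2-tdT or Pdgfra-tdT, was given saline in 4 mice and bleomycin in 4 others, which makes 4 groups. The mice were 11 weeks old, and lungs were taken at day 14. The Acta2-tdT mice received tamoxifen in the food at 400 mg/kg from 5 days after saline or bleomycin, and the Pdgfra-tdT mice received 5 injections of 3 mg at 6 weeks of age, so the line and the time and route of labeling cannot be told apart. Mice are numbered within each line, 1 to 4 for saline and 5 to 8 for bleomycin.

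Macrophages of the lung are usually divided into alveolar macrophages, which live in the airspaces and clear surfactant, and interstitial macrophages, which live in the tissue. Alveolar macrophages are known for the chitinase-like protein Chil3 and the scavenger receptor Marco. Interstitial macrophages are known for C1q and high Csf1r, the receptor of the growth factors Csf1 and Il34. The mannose receptor Mrc1 is counted with the interstitial genes here, without a claim that it sets the kinds apart. C1q is built from A, B and C chains and, with the proteases C1r and C1s, starts the classical complement pathway. Lysozyme 2 (Lyz2), the lysosomal protein Cd68 and Adgre1, the F4/80 antigen, are found in macrophages of both kinds, and Lyz2 and Chil3 are also known from neutrophils and monocytes.

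The summed FPKM of nuclear protein-coding genes differed among the mice. It was 35602 to 57788 in Acta2-tdT saline, 231058 to 463127 in Acta2-tdT bleomycin, 29964 to 59840 in Pdgfra-tdT saline and 28512 to 137952 in Pdgfra-tdT bleomycin. Each value is therefore given as deposited and, where it is called scaled, after setting this sum to 74406 in every mouse. Over all genes tested, scaling moved the median log2 difference from 1.81 to 0.19 between the lines with bleomycin, from 1.76 to -0.02 between bleomycin and saline in Acta2-tdT, from 0.17 to 0.03 between the lines with saline and from 0.02 to -0.29 between bleomycin and saline in Pdgfra-tdT. The log2 differences below are differences of mean log2(FPKM + 1), which understate the change of genes at low levels. The tables hold no read counts, so depth is not given, but the confidence bounds that Cufflinks printed correspond to about 1184000 to 2085000 fragments a mouse in Acta2-tdT saline, 4709000 to 8262000 in Acta2-tdT bleomycin, 1330000 to 1836000 in Pdgfra-tdT saline and 529000 to 3207000 in Pdgfra-tdT bleomycin, as an estimate. Low values in the shallower mice are the least certain. In these bulk samples, fewer macrophages and less macrophage RNA per cell cannot be told apart.

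The sorted cells were checked by the genes that name the lines. Acta2, the smooth muscle actin, was at 139 to 314 FPKM in Acta2-tdT saline and at 1229 to 3211 in Acta2-tdT bleomycin, against 2.59 to 11.0 in Pdgfra-tdT saline and 0.831 to 19.4 in Pdgfra-tdT bleomycin. Pdgfra was at 2.14 to 3.82 FPKM in Pdgfra-tdT saline and at 0.977 to 2.45 in Pdgfra-tdT bleomycin, against 0.273 to 0.562 with saline and 2.49 to 11.9 with bleomycin in the Acta2-tdT line. With bleomycin, Pdgfra was thus higher in every Acta2-tdT mouse than in every Pdgfra-tdT mouse as deposited, against the line's name, and after scaling these groups overlapped (0.801 to 1.91 in Acta2-tdT and 1.32 to 3.53 in Pdgfra-tdT). The collagen gene Col1a1 was at 275 to 1002 FPKM in Acta2-tdT bleomycin and at 0.296 to 13.3 in Pdgfra-tdT bleomycin. The 10 macrophage genes together summed to 382 to 3240 FPKM in the 4 Pdgfra-tdT bleomycin mice, and a list of 11 mesenchymal genes summed to 3.43 to 75.1 in the same mice. In Acta2-tdT bleomycin the same sums were 2280 to 9960 for the macrophage genes and 2300 to 6520 for the mesenchymal list. As macrophage markers outside the 10 genes, the signalling adaptors Tyrobp and Fcer1g were at 547 to 1114 and 407 to 1420 FPKM in Acta2-tdT bleomycin and at 29.6 to 204 and 23.1 to 126 in Pdgfra-tdT bleomycin. The alveolar macrophage marker Siglecf did not exceed 1.20 FPKM in any mouse, nor did Pparg exceed 2.0, so Chil3 and Marco are called alveolar genes here by what they are known for and not by a full alveolar signature.

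The 3 chains of C1q were highest in Acta2-tdT bleomycin. C1qa was at 301, 489, 1408 and 602 FPKM in mice 5 to 8 of this group and at 24.4, 64.6, 30.0 and 2.69 in those of Pdgfra-tdT bleomycin. With saline it was at 10.9, 8.80, 15.3 and 78.4 in Acta2-tdT and at 1.29, 1.54, 3.86 and 5.93 in Pdgfra-tdT. Every Acta2-tdT mouse was above every Pdgfra-tdT mouse given the same agent, and mouse 4 of Acta2-tdT saline stood above the rest of its group. After scaling, the bleomycin groups overlapped, with C1qa at 70.5 to 240 in Acta2-tdT and 7.01 to 96.8 in Pdgfra-tdT, whereas the saline groups still did not.

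C1qb had the highest level of the 3 chains in all 16 mice. It was at 623, 1085, 2908 and 1441 FPKM in Acta2-tdT bleomycin, and at 106, 156, 136 and 17.7 in Pdgfra-tdT bleomycin. In Acta2-tdT saline it was at 17.5, 18.7, 48.8 and 125, and in Pdgfra-tdT saline at 3.42, 2.26, 7.29 and 13.5. In both lines each bleomycin mouse was above each saline mouse, and after scaling this held in Pdgfra-tdT alone. C1qc followed with 201, 331, 890 and 479 FPKM in Acta2-tdT bleomycin and 12.4, 29.6, 22.2 and 1.16 in Pdgfra-tdT bleomycin. Its saline values were 3.76, 3.31, 6.90 and 32.1 in Acta2-tdT and 0.730, 0.338, 2.80 and 3.36 in Pdgfra-tdT, and those 2 groups overlapped.

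The chains did not keep a single proportion to each other. The ratio of C1qb to C1qa within a mouse, which no scaling can change, was 2.19 ± 0.156 (SD, n = 4) in Acta2-tdT bleomycin, 2.13 ± 0.744 in Acta2-tdT saline, 2.07 ± 0.505 with saline in Pdgfra-tdT and 4.47 ± 1.70 with bleomycin there. Within each line its values overlapped between saline and bleomycin. In the bleomycin groups the ratio was 2.07 to 2.39 in Acta2-tdT and 2.42 to 6.59 in Pdgfra-tdT, without overlap. The ratio of C1qc to C1qa in Acta2-tdT was 0.394 ± 0.0454 with saline and 0.693 ± 0.0715 with bleomycin, and the values did not overlap. In Pdgfra-tdT it was 0.519 ± 0.213 and 0.534 ± 0.141, with overlap. Each ratio is a description of 4 mice a group.

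The C1q chains lie side by side on chromosome 4 of GRCm38, C1qa at 136895917 to 136898803, C1qc at 136889804 to 136893065 and C1qb at 136880129 to 136886187, with 2851 bases between C1qa and C1qc and 3616 between C1qc and C1qb. Over the 16 mice their scaled log2 levels had Pearson correlations of 0.95 to 0.98 with each other, while those of the 3 chains with Marco were 0.02 to 0.21. Stretches before the RefSeq start sites (GRCm38.p6) of C1qb and C1qc, which moved together, and of the alveolar genes Chil3 and Marco are printed for comparison, 5′ to 3′ on each gene's strand, which is the minus strand for all 4. Bases that GENCODE counts as exon of the gene were left out, which leaves 99 bases for C1qc, and no promoter was given for C1qa. Capitals mark GAGGAA, the core letters bound by the myeloid factor PU.1, and TGCTGA, the half-site of Maf factors, searched on both strands (TTCCTC and TCAGCA on the other strand). The positions are chr4:136886201-136886450 for C1qb, chr4:136893066-136893164 for C1qc, chr3:106167565-106167814 for Chil3 and chr1:120505025-120505274 for Marco.
C1qb: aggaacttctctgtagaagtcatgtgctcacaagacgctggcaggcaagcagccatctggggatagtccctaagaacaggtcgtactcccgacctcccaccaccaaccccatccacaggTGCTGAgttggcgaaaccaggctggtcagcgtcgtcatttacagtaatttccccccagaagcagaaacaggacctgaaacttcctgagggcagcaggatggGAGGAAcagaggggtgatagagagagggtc
C1qc: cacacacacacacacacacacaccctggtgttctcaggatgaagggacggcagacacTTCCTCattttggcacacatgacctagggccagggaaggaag
Chil3: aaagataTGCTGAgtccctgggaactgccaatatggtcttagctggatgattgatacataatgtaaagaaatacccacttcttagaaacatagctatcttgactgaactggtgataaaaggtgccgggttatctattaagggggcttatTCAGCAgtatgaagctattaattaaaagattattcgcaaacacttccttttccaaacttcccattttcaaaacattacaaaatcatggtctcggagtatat
Marco: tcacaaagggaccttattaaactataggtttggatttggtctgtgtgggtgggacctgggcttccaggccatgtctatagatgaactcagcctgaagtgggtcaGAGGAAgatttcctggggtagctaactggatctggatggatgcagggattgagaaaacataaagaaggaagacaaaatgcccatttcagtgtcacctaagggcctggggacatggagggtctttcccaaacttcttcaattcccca
GAGGAA was found in C1qb, C1qc and Marco and not in this window of Chil3, and TGCTGA in C1qb and Chil3. Of 32851 promoters in the table, 23.3% hold GAGGAA and 16.1% hold TGCTGA on either strand in the same 250 bases, and 9.91% hold GAGGAA in the 99 bases that match C1qc. Among the other members, GAGGAA was in Cd68 and Mrc1 and TGCTGA in Lyz2, and Csf1r and Adgre1 were not searched, since no promoter was given for them.

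Csf1r (chromosome 18) went with C1q. It was at 25.5, 46.5, 111 and 49.6 FPKM in Acta2-tdT bleomycin and at 3.60, 3.52, 1.23 and 0.315 in Pdgfra-tdT bleomycin. With saline it was at 1.36, 0.667, 1.88 and 5.70 in Acta2-tdT, and at 0.163, 0.371, 0.627 and 0.524 in Pdgfra-tdT. Acta2-tdT was above Pdgfra-tdT in every mouse with either agent, as deposited and scaled, but the nearest saline mice as deposited, at 0.667 and 0.627, had overlapping Cufflinks bounds. Mrc1 (chromosome 2, 14229392 to 14332057) was low, at 4.21 to 17.8 FPKM in Acta2-tdT bleomycin, 0.249 to 2.25 in Pdgfra-tdT bleomycin, 0.239 to 1.78 in the saline mice of Acta2-tdT and 0.191 to 0.286 in Pdgfra-tdT saline. Its bleomycin groups did not overlap as deposited, but did after scaling.

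The alveolar genes had another order. Chil3 (chromosome 3, 106147554 to 106167564) was at 86.9, 129, 262 and 187 FPKM in Acta2-tdT bleomycin and at 161, 34.6, 232 and 12.5 in Pdgfra-tdT bleomycin. In saline mice it was at 2.35, 0.890, 18 and 8.93 in Acta2-tdT and at 4.74, 4.56, 1.69 and 4.82 in Pdgfra-tdT. The lines overlapped with either agent. The mean was higher in Acta2-tdT bleomycin as deposited (166 ± 75.9 against 110.0 ± 104 FPKM, SD, n = 4) and higher in Pdgfra-tdT bleomycin after scaling (34.1 ± 11.1 against 144 ± 176).

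Marco (chromosome 1, 120474538 to 120505024) was at 0.0380, 3.45, 1.30 and 5.14 FPKM in Acta2-tdT bleomycin and at 26.5, 1.14, 14.1 and 0.408 in Pdgfra-tdT bleomycin. No saline mouse of either line was above 0.462. Mice 5 and 7 of Pdgfra-tdT bleomycin were the highest of all 16 mice, as deposited and scaled, and these mice were also the highest of their group for Chil3. Set against Csf1r in the same mouse, Marco was 0.323 to 11.4 times Csf1r in Pdgfra-tdT bleomycin and 0.00149 to 0.104 times Csf1r in Acta2-tdT bleomycin.

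Lyz2 (chromosome 10, 117277334 to 117282274) had the highest FPKM of the 10 genes in all 16 mice. It was at 980.1, 1989, 3974 and 2031 FPKM in Acta2-tdT bleomycin and at 2861, 1522, 1034 and 343 in Pdgfra-tdT bleomycin. In saline mice it was at 67.6, 35.9, 112 and 174 in Acta2-tdT and at 69.5, 31.8, 24.3 and 58.7 in Pdgfra-tdT. The bleomycin groups overlapped as deposited, and after scaling every Pdgfra-tdT mouse (894 to 2278) was above every Acta2-tdT mouse (229 to 679).

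Cd68 (chromosome 11, 69664213 to 69666153) was at 47.8 to 373 FPKM in Acta2-tdT bleomycin, 4.33 to 39.0 in Pdgfra-tdT bleomycin, 1.19 to 11.1 in the saline mice of Acta2-tdT and 0.536 to 2.07 in Pdgfra-tdT saline. In each line the bleomycin mice were above the saline mice as deposited. Adgre1 (chromosome 17, 57358686 to 57483529) was low for a general macrophage marker, at 2.59 to 19.5 FPKM in Acta2-tdT bleomycin and 0.289 to 3.07 in Pdgfra-tdT bleomycin, and at most 1.19 in a saline mouse. The groups of Adgre1 were separate in a single comparison, bleomycin against saline in Acta2-tdT as deposited.

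The near copies of 2 of the genes could take part of their reads. Lyz1, the intestinal lysozyme beside Lyz2, did not exceed 8.44 FPKM, or 0.992% of the sum of Lyz1 and Lyz2 in any mouse. Chil4, the close relative of Chil3, made up 0.0799% to 2.19% of their sum in bleomycin mice and up to 29.8% in a saline mouse, so that the saline levels of Chil3 are the less certain ones.

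**Figure D1:**
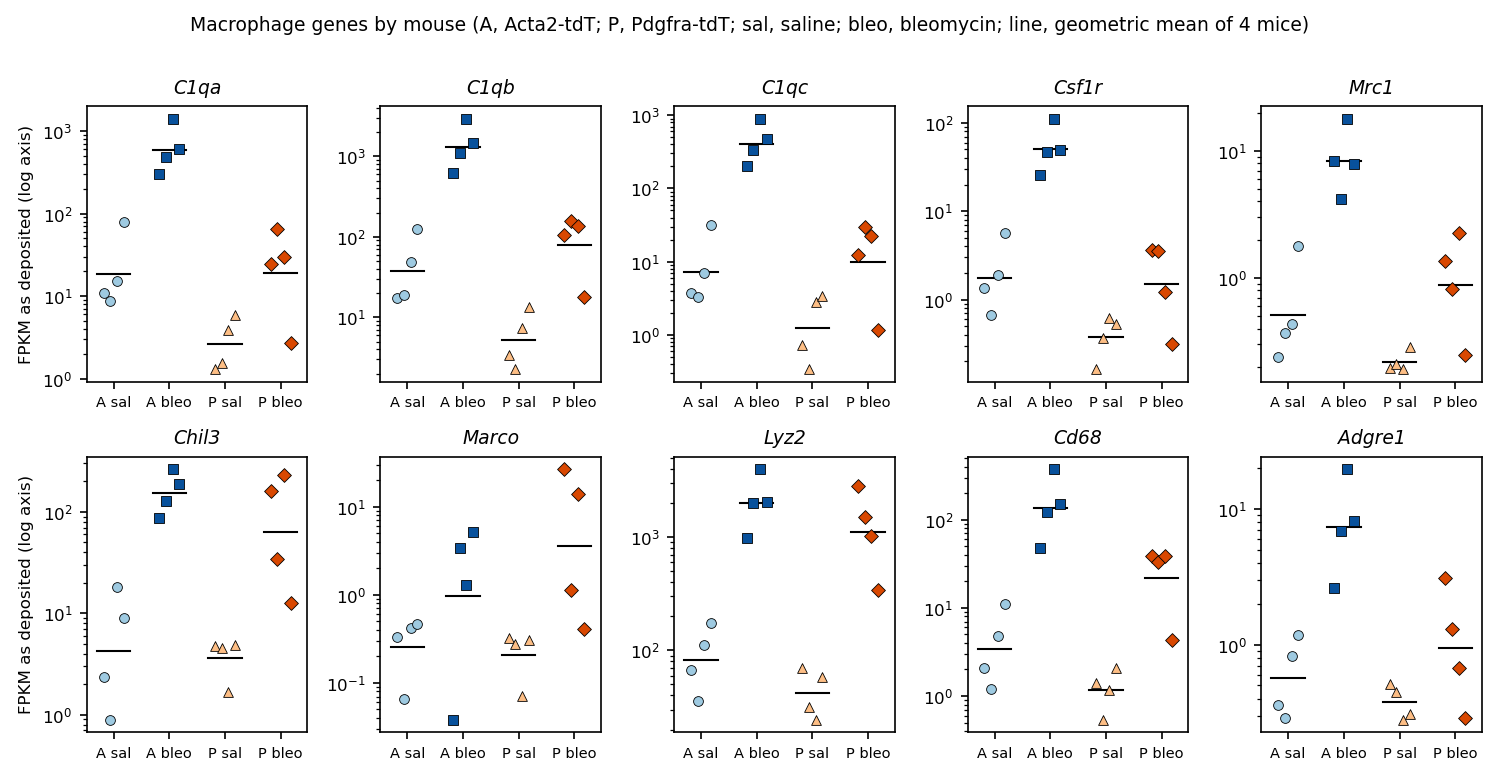
Each panel plots 1 gene, with a point for each of the 4 mice of a group, FPKM as deposited on the vertical log axis, and a line at the geometric mean. The C1q chains and Csf1r were highest in Acta2-tdT bleomycin (301 to 1408 FPKM for C1qa), whereas Chil3, Marco and Lyz2 overlapped between the bleomycin groups.

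With bleomycin, C1q chains and Csf1r had higher means in Acta2-tdT on both scales, and the alveolar genes overlapped between the lines. C1qa, C1qb, C1qc, Cd68, Mrc1 and Csf1r were higher in every Acta2-tdT mouse than in every Pdgfra-tdT mouse as deposited, 6 of the 10 genes, beside 56.8% of all 11995 genes tested. After scaling these were C1qc and Csf1r, 2 of the 10, beside 18.9% of all genes, and Lyz2 was lower in every Acta2-tdT mouse, 1 of the 10, beside 14.7%. Since the genes were picked on such values, nothing is read from these counts. The median over the 10 genes of the log2 difference (Acta2-tdT minus Pdgfra-tdT) was 2.38 as deposited and 0.22 scaled, against 1.81 and 0.19 over all genes.

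The C1q chains and Csf1r had the largest differences of the 10 genes on both scales, and Marco the lowest. The log2 difference of C1qc was 5.10 ± 0.97 (SE, 4 mice against 4) as deposited and 2.53 ± 0.94 scaled, that of C1qa 4.83 ± 1.0 and 2.2 ± 0.92, and that of C1qb 4.00 ± 0.85 and 1.32 ± 0.74. Csf1r had 4.21 ± 0.61 and 1.89 ± 0.51, with the bleomycin groups separate on both scales. Mrc1 had 2.21 ± 0.48 as deposited and 0.25 ± 0.41 scaled, and Adgre1 had 2.01 ± 0.63 and 0.20 ± 0.35. On the other side, Marco had -1.06 ± 1.19 as deposited and -2.21 ± 0.94 scaled, and Chil3 changed sign from 1.24 ± 1.02 to -1.41 ± 0.82. Lyz2 changed sign as well, from 0.84 ± 0.76 to -1.86 ± 0.48, and Cd68 went from 2.55 ± 0.93 to -0.06 ± 0.76. Single mice moved 3 of these values by more than 1.5 times as deposited. Marco was at -0.33 without Pdgfra-tdT mouse 5, -0.62 without mouse 7, -1.76 without mouse 8 and -0.58 without Acta2-tdT mouse 5. Chil3 was at 0.48 without Pdgfra-tdT mouse 8, and Lyz2 at 0.27 without that mouse, 1.29 without Pdgfra-tdT mouse 5 and 0.50 without Acta2-tdT mouse 7.

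Ratios of genes within a mouse do not depend on the scaling. Chil3 was 0.0901 to 0.140 times C1qb in the Acta2-tdT bleomycin mice and 0.221 to 1.70 times in the Pdgfra-tdT bleomycin mice, and the medians differed 8.98-fold. The ratio of Lyz2 to C1qb was 1.37 to 1.83 in Acta2-tdT bleomycin and 7.60 to 27.0 in Pdgfra-tdT bleomycin, with medians 9.75-fold apart. Leaving out 1 mouse, these folds ran from 5.70 to 12.3 and from 6.52 to 13. The ratio of Marco to Csf1r was 101-fold apart by medians, but 30.2-fold without Pdgfra-tdT mouse 5 or 7, 171-fold without mouse 6 or 8, 58.4-fold without Acta2-tdT mouse 5 or 7 and 369-fold without mouse 6 or 8, on values of Csf1r as low as 0.315 FPKM in Pdgfra-tdT and of Marco as low as 0.0380 in Acta2-tdT. None of these 3 ratios overlapped between the bleomycin groups, whereas all 3 overlapped between the saline groups. The ratio of Cd68 to C1qb was separate with either agent, at 0.0767 to 0.128 against 0.214 to 0.369 with bleomycin and 0.0637 to 0.119 against 0.153 to 0.411 with saline.

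**Figure D2:**
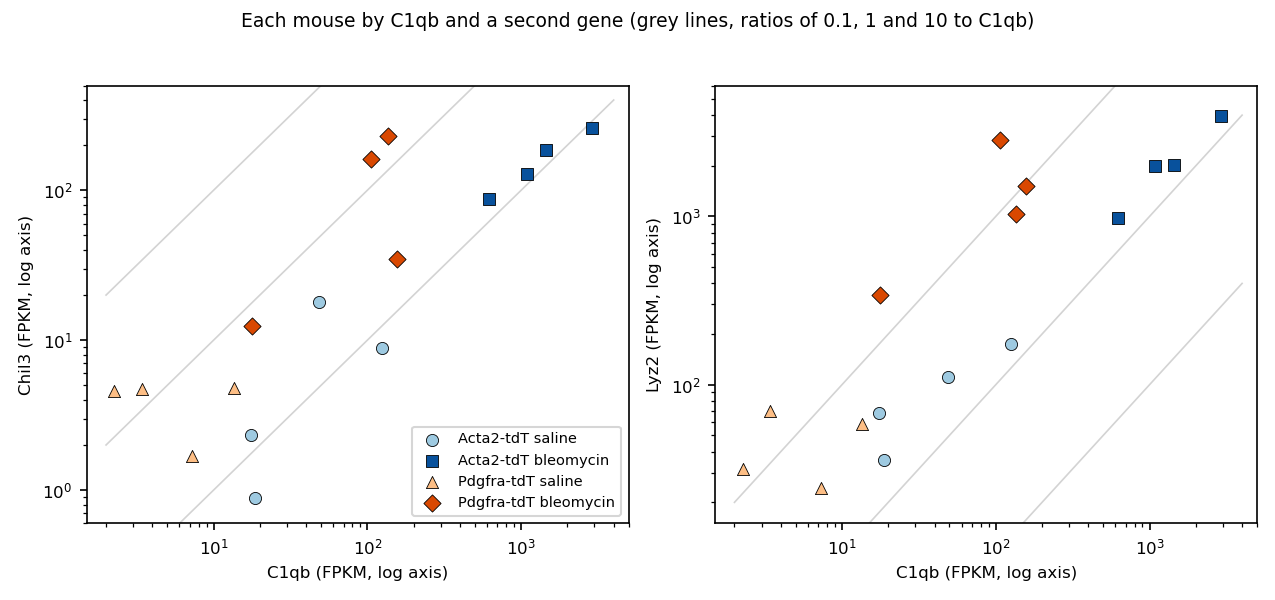
For each of the 16 mice, the FPKM of Chil3 (left) or Lyz2 (right) is plotted against that of C1qb, as deposited and on log axes, with grey lines at ratios of 0.1, 1 and 10 to C1qb. The Acta2-tdT bleomycin mice lay near 0.1 for Chil3 (0.0901 to 0.140) and just above 1 for Lyz2 (1.37 to 1.83), and the Pdgfra-tdT bleomycin mice lay at higher ratios in both panels.

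The make-up of the 10 genes' summed FPKM differed in the same way. The C1q chains together made up 45.3% to 52.2% of the sum in Acta2-tdT bleomycin and 4.41% to 13.6% in Pdgfra-tdT bleomycin. Lyz2 made up 39.9% to 47.3% in the former and 68.5% to 89.6% in the latter. With saline the shares of the C1q chains were 30.2% to 53.7% in Acta2-tdT and 6.61% to 33.0% in Pdgfra-tdT, which overlapped. The 4 Acta2-tdT bleomycin mice were close to each other in these shares, although the summed FPKM of the 10 genes ran from 2280 to 9960 among them.

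An index was formed in each mouse as the mean log2(FPKM + 1) of Chil3 and Marco minus that of C1qa, C1qb, C1qc, Mrc1 and Csf1r. It was -3.37, -2.48, -3.94 and -2.40 in the Acta2-tdT bleomycin mice and 2.34, -1.14, 2.0 and 0.54 in the Pdgfra-tdT bleomycin mice. The group means were -3.05 ± 0.74 (SD, n = 4) and 0.94 ± 1.59, against -1.51 ± 0.85 in Acta2-tdT saline and -0.06 ± 0.73 in Pdgfra-tdT saline. The bleomycin groups were apart by -3.98 ± 0.88 (SE) as deposited and -3.45 ± 0.83 scaled, without overlap on either scale. The saline groups were apart by -1.45 ± 0.56 and -1.67 ± 0.61 and overlapped on both.

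Within each line this index of the members overlapped between bleomycin and saline. In Acta2-tdT the mean with bleomycin minus that with saline was -1.53 ± 0.56 as deposited and -0.80 ± 0.50 scaled, and in Pdgfra-tdT it was 1.0 ± 0.87 and 0.97 ± 0.90. In Pdgfra-tdT bleomycin, mouse 6 was the only mouse below 0, and it had the highest C1qa and C1qb of its group and a Marco level of 1.14 FPKM. With Chil3 as the only alveolar gene, the difference between bleomycin and saline in Acta2-tdT was 0.26 ± 0.61 as deposited and 0.17 ± 0.66 scaled. With Marco as the only one it was -3.33 ± 0.78 and -1.78 ± 0.54, so its direction depended on the gene used.

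Further markers of both kinds of macrophage were tested in the fit over all genes, with limma and Benjamini-Hochberg adjusted p-values. Of 11 further alveolar genes, 7 passed the filter on low values, and of 12 further interstitial genes all 12 passed. Over all 7 companion lists, 44 of 54 genes tested were higher in Acta2-tdT bleomycin as deposited. The filter asked for 1 FPKM in 4 of the 8 mice, and 43 of the 54 genes would not have passed it without the group where they were higher, since fewer than 4 mice of the other group reached 1 FPKM. These 43 held 37 of the 44 calls as deposited and 14 of the 17 after scaling, and 10 of the 11 and 5 of the 6 calls among the interstitial genes, so the counts and medians of the lists are descriptions. With no filter, all 69 companion genes were tested as deposited, and 41 of them, 11 of the interstitial genes included, were called higher and none lower, beside 8776 of all 40888 genes called in either direction. Of the 12 interstitial genes, 11 were higher than in Pdgfra-tdT bleomycin and none lower, beside 71.0% of all genes higher. Of the 7 alveolar genes, Itgax alone passed the test, with a log2 difference of 1.17 (limma, adjusted p = 0.0229), and it needed the group where it was higher to pass the filter. The median log2 difference was 3.34 for the interstitial and -0.10 for the alveolar genes, against 1.81 for all genes. After scaling, 6 of the 12 interstitial genes were higher and none lower, and 4 of the 7 alveolar genes were lower and none higher, beside 15.6% of all genes higher and 17.7% lower. The scaled medians were 1.23 and -1.48, against 0.19 for all genes.

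The interstitial genes with the largest differences were Pf4, a chemokine stored in platelets and made by tissue macrophages, and Mgl2, a C-type lectin. Pf4 was at 109 to 340 FPKM in Acta2-tdT bleomycin and at 1.65 to 22.4 in Pdgfra-tdT bleomycin, a log2 difference of 4.98 ± 0.89 (limma, adjusted p = 0.000601) as deposited and 2.43 ± 0.76 (adjusted p = 0.0334) scaled. Mgl2, which needed Acta2-tdT bleomycin to pass the filter, was at 30.0 to 70.9 against 0.370 to 1.03 FPKM, and had 4.74 ± 0.50 (adjusted p = 5.4e-05) and 2.41 ± 0.42 (adjusted p = 0.00353). Chosen after their values were seen, the fractalkine receptor Cx3cr1 (1.67), the coagulation factor subunit F13a1 (1.36) and the scavenger receptor Stab1 (1.20) were among the other interstitial genes that stayed higher after scaling, and they too needed that group to pass the filter. Lyve1, the hyaluronan receptor of some interstitial macrophages and of lymphatic vessels, did not pass the test on either scale and had a log2 difference of 1.35 as deposited and -0.82 scaled.

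The 4 alveolar genes that were lower in Acta2-tdT after scaling were, chosen after their values were seen, the proton pump subunit Atp6v0d2 (-2.17, limma, adjusted p = 0.0101), the carbonic anhydrase Car4 (-2.11, adjusted p = 0.0347), Plet1 (-1.92, adjusted p = 0.00732) and the eosinophil-associated ribonuclease Ear1 (-1.48, adjusted p = 0.00648), of which Plet1 and Ear1 needed Pdgfra-tdT bleomycin to pass the filter. None of them passed the test as deposited, where their differences were -0.10, -0.91, -0.37 and -0.37. Car4 is also known from lung capillary endothelium, and the summed FPKM of 5 endothelial genes was 18.2 to 24.6 in Acta2-tdT bleomycin and 3.66 to 854 in Pdgfra-tdT bleomycin, whose part in the result was not tested. The index made from these 11 alveolar and 12 interstitial genes was -2.54 ± 0.59 (SD, n = 4) in Acta2-tdT bleomycin and 0.37 ± 0.15 in Pdgfra-tdT bleomycin, a difference of -2.91 ± 0.30 (SE) as deposited and -2.12 ± 0.23 scaled, without overlap on either scale. The saline groups, which overlapped for the members, did not overlap in this index, which differed by -0.84 ± 0.22 as deposited and -1.0 ± 0.20 scaled. Between bleomycin and saline it was 0.51 ± 0.11 and 0.61 ± 0.11 higher in Pdgfra-tdT, without overlap on either scale, and the difference in Acta2-tdT was -1.56 ± 0.36 without overlap as deposited and -0.51 ± 0.29 with overlap scaled. The index takes in genes at low levels. Between the saline groups, 2 of the 11 alveolar and 5 of the 12 interstitial genes passed the filter. Between bleomycin and saline in Pdgfra-tdT, 6 and 4 passed it.

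**Figure D3:**
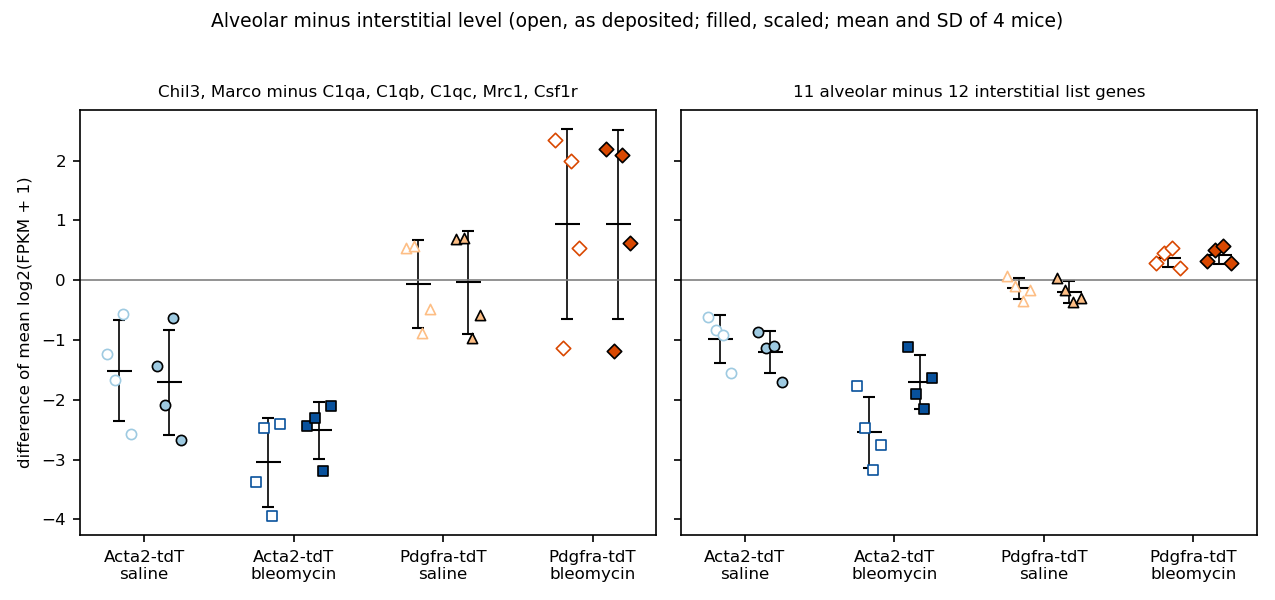
Each point is a mouse, placed by its alveolar minus interstitial difference of mean log2(FPKM + 1) in its group, from the members in the left panel and from the 11 alveolar and 12 interstitial list genes in the right panel, with the mean and SD of 4 mice and with open points as deposited and filled points scaled. In the left panel the Acta2-tdT bleomycin mice lay at -3.94 to -2.40 as deposited and the Pdgfra-tdT bleomycin mice at -1.14 to 2.34, and the bleomycin groups overlapped in neither panel.

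**Figure D4:**
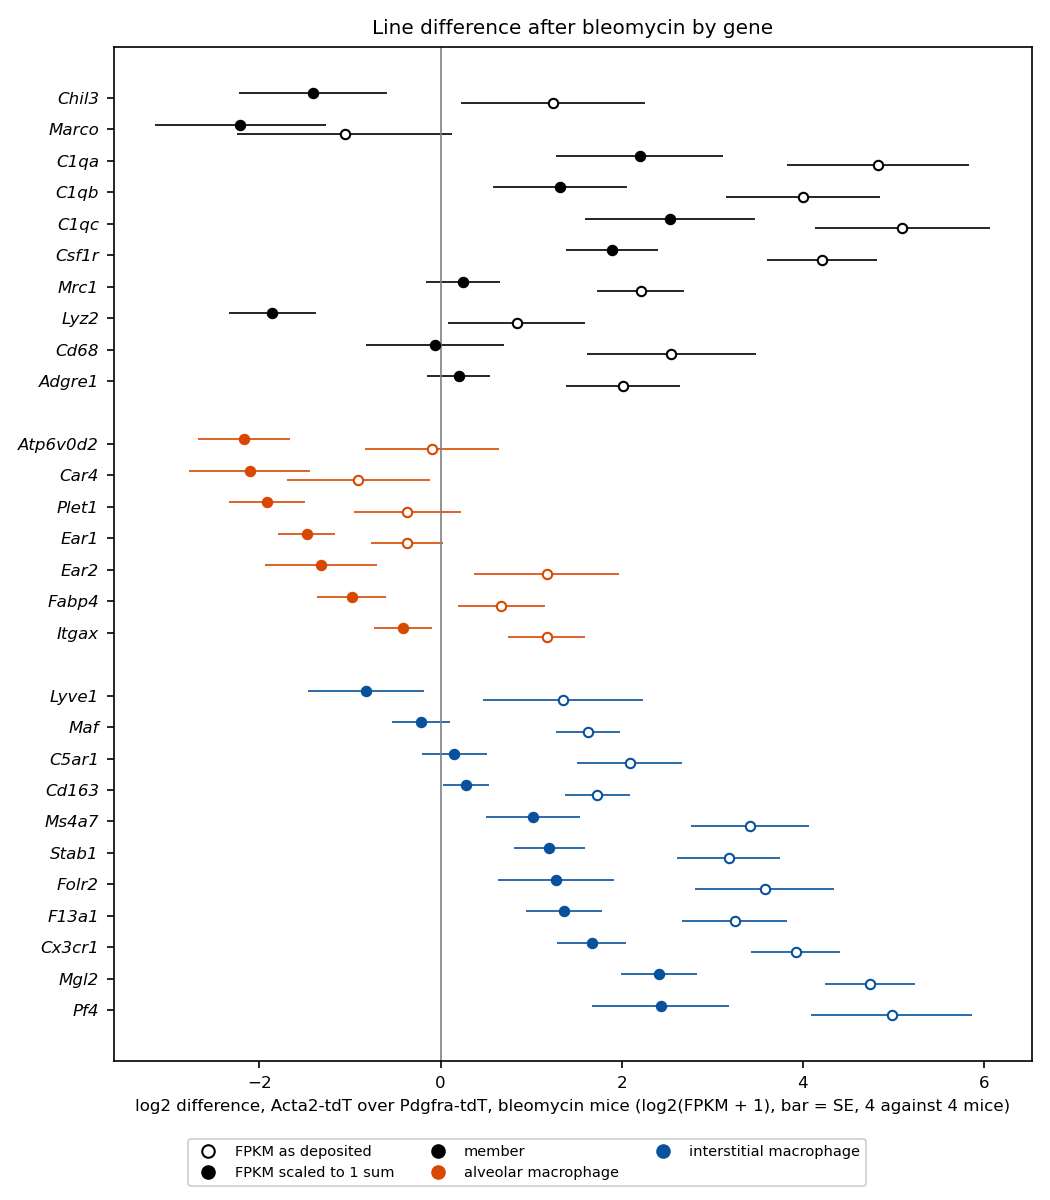
The log2 difference between the lines in bleomycin mice (Acta2-tdT minus Pdgfra-tdT, log2(FPKM + 1)) is plotted with its standard error for the 10 genes in black, for 7 further alveolar genes in orange and for 11 of the 12 further interstitial genes in blue, with open points as deposited and filled points scaled. The C1q chains and Csf1r were above 0 on both scales and Marco was below 0 on both, whereas Chil3, Lyz2 and Cd68 changed sign with scaling, as did Ear2, Fabp4, Itgax, Lyve1 and Maf.

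The scaled counts moved with single mice. Leaving out each of the 8 bleomycin mice in turn, an alternative chosen after seeing the data, left 3 to 6 alveolar genes lower and none higher, with 6 without Pdgfra-tdT mouse 8. The interstitial genes that were higher numbered 6 without Pdgfra-tdT mouse 5, 4 without mouse 7 or 8, 3 without mouse 6, and 2 to 3 without any of the Acta2-tdT mice, and 1 was lower without Pdgfra-tdT mouse 8. Over all genes the scaled calls ran from 1832 to 5685 in these 8 fits, highest without Pdgfra-tdT mouse 5, against 3998 with all mice. As deposited, the calls among the companion genes went from 44 of 54 tested to 28 of 42 tested without Acta2-tdT mouse 7. Over all genes they went from 9553 of 11995 to 6155 of 9337. The filter used the values as deposited, and without any 1 of the Acta2-tdT mice 42 or 43 companion genes passed it.

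Of 7 genes of the C1 complex and the steps after it, 4 passed the filter and all 4 were higher in Acta2-tdT bleomycin as deposited, beside 71.0% of all genes, and 2 of 4 after scaling, beside 15.6%. The largest difference was in Serping1, the inhibitor of C1r and C1s, at 118 to 362 FPKM in Acta2-tdT bleomycin and 0.155 to 54.8 in Pdgfra-tdT bleomycin, with a log2 difference of 5.35 ± 1.16 (limma, adjusted p = 0.00169) as deposited and 3.10 ± 0.94 (adjusted p = 0.0284) scaled. C4b, the next component of the pathway, had 3.16 ± 0.38 (adjusted p = 8.1e-05) and 1.30 ± 0.25 (adjusted p = 0.00437). The proteases stayed low beside their C1q partners, with C1ra at 3.80 to 6.80 and C1s1 at 3.45 to 6.32 FPKM in Acta2-tdT bleomycin, and neither passed the test after scaling (adjusted p = 0.118 and 0.325). Serping1, C4b, C1ra and C1s1 needed Acta2-tdT bleomycin to pass the filter, as did Csf1, Il34, Mrc2 and Chil1, which follow. The 3 genes that did not pass the filter were C1rb, C1s2 and C2, and C1rb was listed at 0 in all 4 Acta2-tdT bleomycin mice.

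Of 6 genes around Csf1r and the related receptor of Csf2, 4 passed the filter and all 4 were higher as deposited, beside 71.0% of all genes, and 2 of 4 after scaling, beside 15.6%. These 2 were the ligands of Csf1r. Csf1 was at 11.4 to 33.8 FPKM in Acta2-tdT bleomycin and 0.298 to 5.28 in Pdgfra-tdT bleomycin (scaled log2 difference 1.29 ± 0.41, limma, adjusted p = 0.034). Il34 was at 3.0 to 9.14 against at most 0.109 (scaled 0.91 ± 0.16, adjusted p = 0.00388). Csf2, which drives alveolar macrophages, was listed at 0 in the Acta2-tdT bleomycin mice and reached 0.539 in Pdgfra-tdT bleomycin.

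Of 15 general macrophage and myeloid genes, 14 were higher in Acta2-tdT bleomycin as deposited and none lower, beside 71.0% of all genes higher, and after scaling 0 of 15 passed the limma test in either direction, with 0 at an unadjusted p under 0.05. Of 7 monocyte genes 6 were tested, of which 6 were higher as deposited and 1 after scaling, beside the same 71.0% and 15.6%. Of the calls as deposited, 10 of the 14 general and 5 of the 6 monocyte ones needed Acta2-tdT bleomycin to pass the filter. The scaled monocyte call needed it too. Among 11 relatives of the members, 6 were tested, and after scaling the mannose receptor family member Mrc2, known from fibroblasts, was higher (1.47 ± 0.20, limma, adjusted p = 0.00119), as was the chitinase-like gene Chil1 (1.27 ± 0.41, adjusted p = 0.0352).

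Markers of other cells moved with these groups. The summed FPKM of the 11 mesenchymal genes was 741 to 1050 in Acta2-tdT bleomycin and 7.68 to 40.5 in Pdgfra-tdT bleomycin after scaling, and Tcf21 was listed at 0 in all 4 of the latter mice. The sum of 9 neutrophil genes was 1160 to 5740 against 8.25 to 147 as deposited and 198 to 1340 against 21.5 to 79.4 scaled. With saline it was 742 to 1520 in Acta2-tdT and 21.8 to 46.1 in Pdgfra-tdT as deposited, and 1550 to 2320 and 27.2 to 114 scaled. In Acta2-tdT the scaled sum was thus lower in every bleomycin mouse than in every saline mouse. Neutrophils are a known source of Lyz2 and Chil3, and the part of these cells in the result was not tested.

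With saline, the C1q chains had the largest differences between the lines. Of the 10 genes, 6 passed the filter on low values in this comparison, and 2 of these 6, C1qa and C1qb, were higher in every Acta2-tdT mouse on both scales, beside 6.56% of the 8153 genes tested as deposited and 7.75% scaled. Csf1r, which did not pass the filter, was also higher in every Acta2-tdT mouse. The log2 differences (Acta2-tdT minus Pdgfra-tdT) were 2.59 ± 0.81 (SE) for C1qb, 2.40 ± 0.79 for C1qa, 1.78 ± 0.80 for C1qc and 1.06 ± 0.44 for Csf1r as deposited. Those of Chil3 and Marco were 0.31 ± 0.80 and 0.08 ± 0.12 as deposited and 0.03 ± 0.87 and -0.03 ± 0.21 scaled. Lyz2 had 0.96 ± 0.60 and Cd68 1.07 ± 0.58, with overlap. Without Acta2-tdT mouse 4 the values as deposited were 1.13 for C1qc, 0.67 for Csf1r, 0.61 for Lyz2, 0.61 for Cd68, 0.06 for Chil3 and 0.03 for Marco. Without any 1 of the 8 mice, Marco stayed between 0.01 and 0.18, and Chil3 ran from -0.25 without Acta2-tdT mouse 3 to 0.86 without Acta2-tdT mouse 2.

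Of the companion genes tested between the saline groups, 5 of 21 were higher in Acta2-tdT and none lower, beside 2.72% of all genes higher. The 3 with the largest differences were the adaptors Tyrobp (3.27 ± 0.54, limma, adjusted p = 0.018) and Fcer1g (3.09 ± 0.50, adjusted p = 0.0172) and the calcium-binding Aif1 (2.94 ± 0.42, adjusted p = 0.0106). The transcription factor Spi1 (PU.1) was among the other calls. Of the 5 genes called, 3, with Aif1 and Spi1 among them, reached 1 FPKM in Acta2-tdT saline alone and were thus tested only through the group where they were high. Tyrobp, Fcer1g and Spi1 are also known from neutrophils, whose summed marker level, given above, was higher in Acta2-tdT, and its part in the result was not tested. No alveolar gene passed the test, of 2 tested. The number of calls was 0 after leaving out any of the 4 Acta2-tdT mice, 1 to 2 without Pdgfra-tdT mouse 1, 2 or 4, and 15 without Pdgfra-tdT mouse 3, a fit in which 2141 of all 7356 genes were called, against 237 of 8153 with all mice.

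In the Acta2-tdT line, bleomycin went with higher levels of nearly all the genes as deposited. All but Marco, 9 of the 10, were higher in every bleomycin mouse than in every saline mouse, beside 67.8% of the 12523 genes tested. After scaling these were C1qc and Lyz2, 2 of the 10, beside 21.5%. C1qc had the largest log2 difference (bleomycin minus saline), 5.59 ± 0.81 (SE) as deposited and 2.71 ± 0.66 scaled. C1qb had 5.06 ± 0.80 and 2.09 ± 0.63, Cd68 4.86 ± 0.81 and 2.11 ± 0.69, Chil3 4.71 ± 0.83 and 1.94 ± 0.76, and Lyz2 4.57 ± 0.63 and 1.58 ± 0.51. Marco had 1.12 ± 0.58 and -0.01 ± 0.28, so its sign depended on the scaling. The median over the 10 genes was 4.64 as deposited and 1.76 scaled, against 1.76 and -0.02 over all genes.

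Among the companion genes, 51 of 52 tested were higher with bleomycin in Acta2-tdT as deposited, beside 70.4% of all genes. Of the 52, 34 needed the bleomycin mice to pass the filter, where they were higher as deposited, and held 33 of the 51 calls, and with no filter 54 of all 69 were higher and none lower, beside 15415 of 42342 genes called in either direction. The 3 largest were the lysosomal membrane protein Lamp1 (4.56 ± 0.49, limma, adjusted p = 2.2e-05), the Fc receptor Fcgr3 (4.06 ± 0.60, adjusted p = 0.000112) and the lysosomal protein Laptm5 (4.02 ± 0.54, adjusted p = 6.3e-05). All 3 remained higher after scaling, at 1.67, 1.22 and 1.27. Over all companion genes 12 were higher and 4 lower after scaling, beside 23.9% and 32.5% of all genes. Of the 12 higher genes, 6 needed the bleomycin mice to pass the filter. The 4 lower genes, chosen after their values were seen, were C1s1 (-0.40), the integrin Itgal (-0.50), Lyve1 (-0.82) and Maf (-0.57), of which C1s1 and Itgal needed the bleomycin mice to pass the filter. All 4 had been called higher as deposited (1.45, 1.08, 1.74 and 1.49), and after quantile normalization 30 companion genes were higher and 0 lower, so a lower call for these genes was made on the scaled values alone.

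In the Pdgfra-tdT line, Lyz2, Chil3 and C1qb had the largest differences. Of the 6 genes that passed the filter here, C1qb, Lyz2, Chil3 and Cd68 were higher in every bleomycin mouse than in every saline mouse, 4 of 6 on both scales, beside 1.43% of the 7275 genes tested as deposited and 1.31% scaled. Of the 4 genes that did not pass it, Marco was separate in the same way on both scales and Mrc1 after scaling. The log2 differences were 4.69 ± 0.73 (SE) for Lyz2, 3.79 ± 1.0 for Chil3, 3.65 ± 0.86 for C1qb, 3.38 ± 0.74 for Cd68 and 2.26 ± 1.05 for Marco as deposited. C1qa and C1qc overlapped, at 2.48 ± 0.96 and 2.27 ± 0.96, and Csf1r had 0.99 ± 0.45. Scaled, Lyz2 had 4.18 ± 0.61, C1qb 3.26 ± 0.78 and Csf1r 0.85 ± 0.39. Mouse 8 was the lowest of its group for all 10 genes as deposited.

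**Figure D5:**
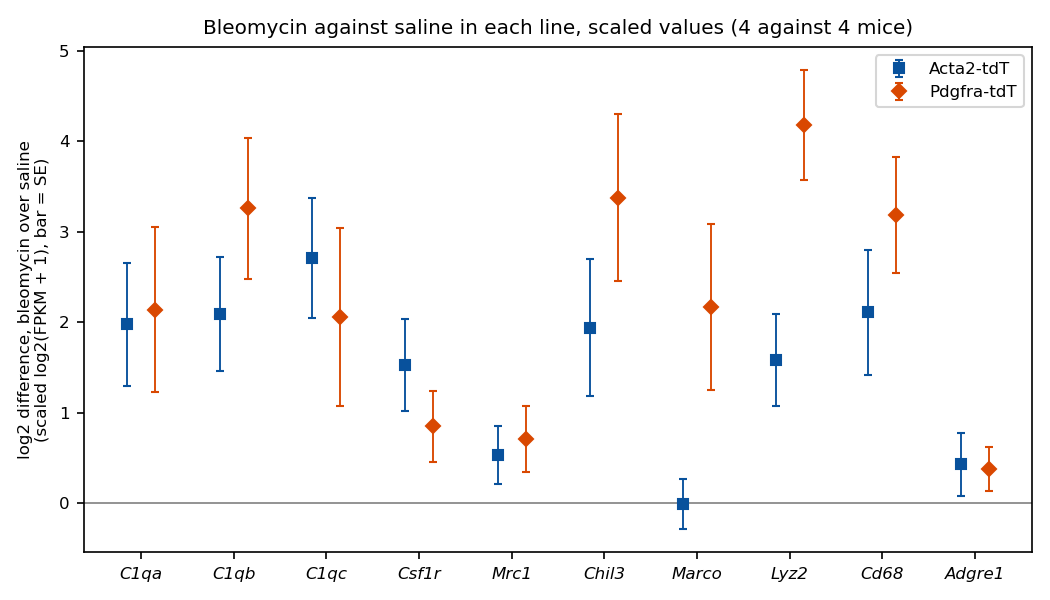
The scaled log2 difference between bleomycin and saline (log2(FPKM + 1)) is plotted with its standard error for each of the 10 genes, with squares for Acta2-tdT and diamonds for Pdgfra-tdT, 4 against 4 mice in each. C1qc had the largest difference in Acta2-tdT (2.71) and Lyz2 in Pdgfra-tdT (4.18), and Marco stood at -0.01 in Acta2-tdT, where it was at 1.12 before scaling.

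None of the 21 companion genes tested in the Pdgfra-tdT line passed the limma test, beside 0.0275% of all genes higher, and 10 had an unadjusted p under 0.05, as had 312 of all 7275 genes. Tyrobp (29.6 to 204 FPKM with bleomycin and 4.46 to 23.2 with saline) and Fcer1g (23.1 to 126 and 4.26 to 14.0) did not overlap between the groups, with log2 differences of 3.26 and 3.19 (adjusted p = 0.543 and 0.44). With weights that count a variable library for less, 13 companion genes passed, beside 548 of all 7275 genes. Without mouse 8 there were 3, beside 69 of 6419, against 9 of 7275 over all genes in the fit without weights.

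The difference between the lines in their response to bleomycin was tested as an interaction. As deposited, 27 of 56 companion genes tested had a larger log2 difference in Acta2-tdT and none a larger one in Pdgfra-tdT, beside 36.6% of all 16605 genes with a larger one in Acta2-tdT. By list, these were 9 of 12 interstitial and 0 of 8 alveolar genes. Of the 56, 26 needed the group where their mean was highest to pass the filter, and held 18 of the 27 calls and 3 of the 9 interstitial ones. With no filter 23 of all 69 were called, 7 of them interstitial, beside 5439 of 44499 genes. After scaling 2 passed, beside 1.24% of all genes in the direction of Acta2-tdT and 1.16% in that of Pdgfra-tdT. They were Mrc2 (1.33 ± 0.19 larger in Acta2-tdT, limma, adjusted p = 0.00195) and Plet1 (-1.96 ± 0.49, larger in Pdgfra-tdT, adjusted p = 0.048). Leaving out each mouse in turn on the scaled values, chosen after seeing the data, Plet1 passed in 3 of 16 fits, those without Acta2-tdT mouse 6 or Pdgfra-tdT mouse 5 or 8 (limma, adjusted p = 0.0175 to 0.14 over all 16). Mrc2 reached 1 FPKM in the 4 Acta2-tdT bleomycin mice alone, so it was tested only through the group where it was high, and it dropped out of the 4 fits that leave out one of those mice. Plet1 also needed the group where its mean was highest to pass the filter. For the members the differences of each line stand side by side above, with no test.

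The genes most like the C1q chains over the 16 mice were named by the Pearson correlation of their scaled log2 level with the mean of the 3 chains, among 16595 genes. They were the apolipoprotein Apoe (0.97), Spi1 (0.95), Fcgr3 (0.95), the matrix protein Tgfbi (0.94) and the tetraspanin Cd63 (0.94). Those most like Chil3 and Marco were Ms4a8a (0.93), the ribonuclease Ear2 (0.88), Atp6v0d2 (0.87), the acid phosphatase Acp5 (0.86) and Cd200r1 (0.86), the receptor of Cd200. Apoe had a mean of 6540 FPKM in Acta2-tdT bleomycin and 472 in Pdgfra-tdT bleomycin. Ms4a8a had means of 5.70 and 6.46 in these groups and a mean of at most 0.261 in a saline group. The correlations describe 16 mice that share groups and libraries.

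Between the members, C1qa and Csf1r had a correlation of 0.95 over the 16 mice, Chil3 and Lyz2 0.88, Chil3 and Marco 0.77, C1qb and Cd68 0.91, and Marco and Csf1r -0.12. Lyz2 was thus nearer to Chil3 than to C1qa, with which it had 0.49. Mrc1, counted here with the interstitial genes, had 0.78 to 0.80 with the C1q chains, 0.66 with Csf1r and 0.65 with Chil3.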

How the data were processed

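RNA from sorted tdTomato+ cells of 16 mice (4 per group, separate animals) had been made into SmartSeq2 libraries. The authors aligned the reads to mm10 with TopHat2 2.1.1 and Bowtie2 and deposited 1 Cufflinks 2.1.1 table of FPKM a mouse, with confidence bounds. FPKM correct for length and library total, not for the share of RNA from genes outside the protein-coding set.

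The rows of a gene were summed (49452 genes), and 15 genes whose status was not OK in some mouse were left out. Scaled values set the sum over 21950 nuclear protein-coding genes to the same value in each mouse. Genes that reached 1 FPKM in 4 or more mice of a comparison were tested on log2(FPKM + 1) with limma 3.58.1 in R 4.3.3, over all such genes and with Benjamini-Hochberg adjustment at 0.05, and the procedure was tested on simulated data. The interaction used all 16 mice. Python 3.11.15, pandas 2.3.3, NumPy 2.4.6 and matplotlib 3.10.9 were used for the rest. No pair of libraries was identical.

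The 10 genes and all gene lists were chosen with earlier results of these data known. Named were the 10 genes, the near copies Lyz1 and Chil4, Acta2, Pdgfra and Col1a1, the 5 genes most like the C1q chains and the 5 most like Chil3 and Marco, and up to 3 companion genes with the largest rise or fall among those past the threshold whose groups did not overlap. Other genes were named after their values were seen, and single values of a few list genes are not reported here. Alternatives were another pseudocount, filter or scaling, library weights, a replicate block, a fit of all mice and leaving out each mouse.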

Additional observations from a re-analysis of the deposited data

Results flagged for a closer look

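Of 44 sets of 4 values, each of the 10 genes and the index of the members in each of the 4 groups, 5 had a mouse that stood apart from the other 3 by Dixon's criterion. For the genes the criterion was applied to FPKM as deposited and not to log2 values. Chance gives about 1 in 20 sets of normally distributed values, which FPKM need not be. The sets also share mice and genes that move together, so the count is a description. In Acta2-tdT saline this was mouse 4, with C1qa at 78.4 FPKM (8.80 to 15.3 in the other mice), C1qc at 32.1 (3.31 to 6.90) and Mrc1 at 1.78 (0.239 to 0.435). In Pdgfra-tdT saline, Chil3 was lowest in mouse 3, at 1.69 FPKM (4.56 to 4.82 in the others). In Pdgfra-tdT bleomycin, Cd68 was lowest in mouse 8, at 4.33 FPKM (33.4 to 39.0 in the others), and this mouse also had the lowest protein-coding sum of all 16, at 28512.

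The response to bleomycin differed between the lines for 27 companion genes by the limma interaction test as deposited, and for 2 after scaling, Mrc2 and Plet1. These 2 genes had opposite signs, and on the scaled values Plet1 passed in 3 of the 16 fits that leave out 1 mouse. Mrc2 reached 1 FPKM in Acta2-tdT bleomycin alone and was tested only through that group. Plet1 also needed the group where its mean was highest to pass the filter.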

How the results depend on the processing

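The alveolar minus interstitial index kept its direction in 48 of 48 alternatives. Leaving out each mouse, it ranged from -4.67 to -3.51 between the lines with bleomycin, -1.77 to -1.10 with saline, -1.89 to -1.22 for bleomycin in Acta2-tdT and 0.53 to 1.69 in Pdgfra-tdT. All these alternatives kept both alveolar genes, and with Chil3 alone the direction for bleomycin in Acta2-tdT was the opposite, as given above. The members' median log2 difference between the lines with bleomycin (2.38) was 0.22 scaled and 0.31 after quantile normalization (1.91 to 2.74 leaving out each mouse), and that of bleomycin in Acta2-tdT (4.64) was 1.76 and 2.64 (4.17 to 4.94). It ranged from 0.61 to 1.35 between the saline groups and from 2.12 to 3.20 for bleomycin in Pdgfra-tdT.

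Calls among companion genes moved more. For bleomycin in Acta2-tdT, 4 genes called higher as deposited were called lower scaled, C1s1 (1.45 to -0.40), Itgal (1.08 to -0.50), Lyve1 (1.74 to -0.82) and Maf (1.49 to -0.57). Between the lines with bleomycin (44 calls) there were 17 scaled, 17 after quantile normalization, 28 with a mean FPKM of at least 5, which tests fewer genes, and 28 to 47 leaving out each mouse. Between the saline groups (5 calls) there were 0 with no filter, 2 with a mean of at least 5, 16 with library weights, 3 with all 16 mice in 1 fit and 0 to 15 leaving out each mouse. For bleomycin in Acta2-tdT (51 of 52 tested) there were 16 scaled and 30 after quantile normalization. There were 32 of 32 tested with a mean of at least 5, and 40 to 51 leaving out each mouse. Without a bleomycin mouse fewer genes passed the filter, and all 40 or 41 tested were called. In Pdgfra-tdT (0) there were 13 with library weights and 0 to 3 leaving out each mouse. For the interaction (27) there were 17 with a pseudocount of 0.1, 2 scaled, 5 after quantile normalization, 9 with a mean of at least 5, 41 with library weights and 18 to 34 leaving out each mouse. Apart from the number of genes that passed a filter, the causes were not tested.

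The lines share mouse numbers, but same-numbered mice deviated together with correlations of only -0.09 to 0.16 with saline and -0.31 to 0.07 with bleomycin, so the numbers do not pair the mice. The replicate block gave 0 calls with saline and 2 when also scaled, and with bleomycin 42, and 17 when also scaled.

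Depth, which is uneven, limits Marco, Mrc1, Adgre1 and Csf1r, which lay under 1 FPKM in most saline mice. Line and labeling scheme cannot be told apart, the summed level of the libraries also differed between the lines without overlap with bleomycin but not with saline, and 4 mice a group leave the Pdgfra-tdT bleomycin values, from 8.35-fold apart for Lyz2 to 64.9-fold for Marco, imprecise.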

Other observations

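Among markers of other cells, a pair of epithelial genes was present in all groups. Scgb1a1, the secretory protein of club cells, was at 266 to 1516 FPKM in Acta2-tdT bleomycin, 42.8 to 767 in Acta2-tdT saline, 33.0 to 215 in Pdgfra-tdT bleomycin and 23.7 to 126 in Pdgfra-tdT saline, and Sftpc, the surfactant protein of alveolar type 2 cells, reached 221 FPKM in Acta2-tdT bleomycin. The dendritic cell list summed to at most 12.4 FPKM and the lymphocyte list to at most 15.3 FPKM in any mouse, against 382 to 9960 for the 10 macrophage genes in bleomycin mice. These genes and lists were picked for mention after their values were seen. The endothelial list ranged from 3.58 to 311 FPKM among the Pdgfra-tdT saline mice and from 3.66 to 854 among the Pdgfra-tdT bleomycin mice, a wider range than in either Acta2-tdT group (5.58 to 24.6 over both).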
